A study of Mus musculus with 6 samples.

Results

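The genes described here are 10 genes of the choroid plexus, taken by symbol from a table of 23016 genes measured in newborn mouse cerebral cortex: Ttr, Folr1, Kcnj13, Aqp1, Kl, Otx2, Sostdc1, Slc4a5, Clic6 and Enpp2. Each symbol matched 1 row, so all 10 were found. They were taken as a possible marker of choroid plexus carried along when the cortex was dissected, a use that was not tested. The study dissected cortex at postnatal day 0 from 3 wild type (Fezf2+/+) and 3 Fezf2 KO (Fezf2-/-) pups born to Fezf2+/- parents, and made 1 total RNA library from each brain. Replicates 1 and 2 of each genotype came from litter m1 and replicate 3 of each from litter m2.

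The choroid plexus is a folded epithelium on a vascular core that hangs in the ventricles and secretes cerebrospinal fluid. It develops at the dorsal midline next to the cortical hem, and in the forebrain it lies directly against the medial edge of the cortex, so a cortical dissection can include or miss it. Its epithelial cells are known for very high transthyretin expression, for carriers and channels that move water, ions and folate, and for the homeobox factor Otx2, which is needed for the tissue to form.

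Libraries held 44978380 to 52872577 gene reads, summed over all entries. Some entries had identical values, as Xist and a lincRNA entry did, so the same reads may be counted repeatedly in these sums. Fezf2, the targeted gene, had 5030 to 5928 normalised reads in the wild type and 1377 to 1989 in the Fezf2 KO libraries. Cortical neuron genes were plentiful in all 6 libraries: the lowest values of Emx1, Tbr1 and Neurod6 were 3741, 10058 and 12003. Values are normalised read counts, not scaled to gene length. Intervals are exact 95% Poisson intervals and cover counting error only, since reads copied from 1 molecule cannot be told apart. Library Fezf2 KO 1 stood apart in choroid plexus genes and library wild type 1 stood apart in meningeal genes, so results that rest on either are given with and without it.

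Promoter sequence, from 250 bases before to 50 bases after the RefSeq start, was at hand for 5 of the 10 genes (Kcnj13, Kl, Aqp1, Slc4a5 and Otx2, the last with 4 starts). Shown are Slc4a5, Aqp1 and Otx2, which were at least 2-fold higher in Fezf2 KO 1 than in any other library, and Kcnj13, which was not. Capitals mark TAATCC or its reverse complement GGATTA, the core bound by Otx-type homeodomains, searched on both strands.
Slc4a5, GRCm38.p6 chr6:83237125-83237424, plus strand: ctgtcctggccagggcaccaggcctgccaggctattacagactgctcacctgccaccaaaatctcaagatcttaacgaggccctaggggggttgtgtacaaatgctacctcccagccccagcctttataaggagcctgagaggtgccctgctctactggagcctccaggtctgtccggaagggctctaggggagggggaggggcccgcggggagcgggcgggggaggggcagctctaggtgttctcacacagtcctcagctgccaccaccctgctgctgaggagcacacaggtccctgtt
Aqp1, GRCm38.p6 chr6:55336049-55336348, plus strand: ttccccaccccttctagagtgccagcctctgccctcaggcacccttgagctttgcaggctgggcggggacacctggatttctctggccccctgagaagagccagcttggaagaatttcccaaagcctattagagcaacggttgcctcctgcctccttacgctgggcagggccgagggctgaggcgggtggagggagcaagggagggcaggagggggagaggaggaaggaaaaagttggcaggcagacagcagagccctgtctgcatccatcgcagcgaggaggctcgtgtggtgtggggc
Otx2, GRCm38.p6 chr14:48665060-48665359, minus strand: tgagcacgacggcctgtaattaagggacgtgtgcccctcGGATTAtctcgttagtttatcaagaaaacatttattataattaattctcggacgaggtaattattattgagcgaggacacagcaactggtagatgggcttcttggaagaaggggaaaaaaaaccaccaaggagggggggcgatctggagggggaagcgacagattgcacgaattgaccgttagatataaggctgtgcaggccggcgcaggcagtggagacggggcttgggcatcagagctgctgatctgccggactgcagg
Kcnj13, GRCm38.p6 chr1:87394680-87394979, minus strand: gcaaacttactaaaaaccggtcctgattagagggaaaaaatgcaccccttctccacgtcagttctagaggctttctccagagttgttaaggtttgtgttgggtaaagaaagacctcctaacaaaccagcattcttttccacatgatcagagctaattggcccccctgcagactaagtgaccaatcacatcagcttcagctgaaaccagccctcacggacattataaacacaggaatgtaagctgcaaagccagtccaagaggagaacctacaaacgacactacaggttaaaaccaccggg
The motif was found in 1 of the 8 windows of these genes, the Otx2 window shown. Of all 32851 promoter windows of this length, 7.06% held it. The promoters of Ttr, Folr1, Clic6, Sostdc1 and Enpp2 are not shown.

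Ttr encodes transthyretin, the carrier of thyroid hormone and of retinol-binding protein that choroid plexus secretes into cerebrospinal fluid. It had 13.1, 15.7 and 9.45 normalised reads in wild type 1, 2 and 3, against 8950, 65.6 and 68.0 in Fezf2 KO 1, 2 and 3. Fezf2 KO 1 thus stood 132-fold above the next library, and all 3 Fezf2 KO libraries lay above all 3 wild type libraries. As a share of the summed gene reads, Ttr took 208.5 rpm in Fezf2 KO 1 (exact binomial 95% interval 205 to 212). It took 0.224 to 0.372 in the wild type libraries and 1.55 and 1.61 in Fezf2 KO 2 and 3. The reads behind the lower values were few: 14, 18 and 11 in wild type, 73 and 77 in Fezf2 KO 2 and 3. The counting intervals of the latter, 51.4 to 82.4 and 53.7 to 84.99 normalised reads, did not reach those of the wild type libraries, whose highest upper bound was 24.8.

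**Figure D1:**
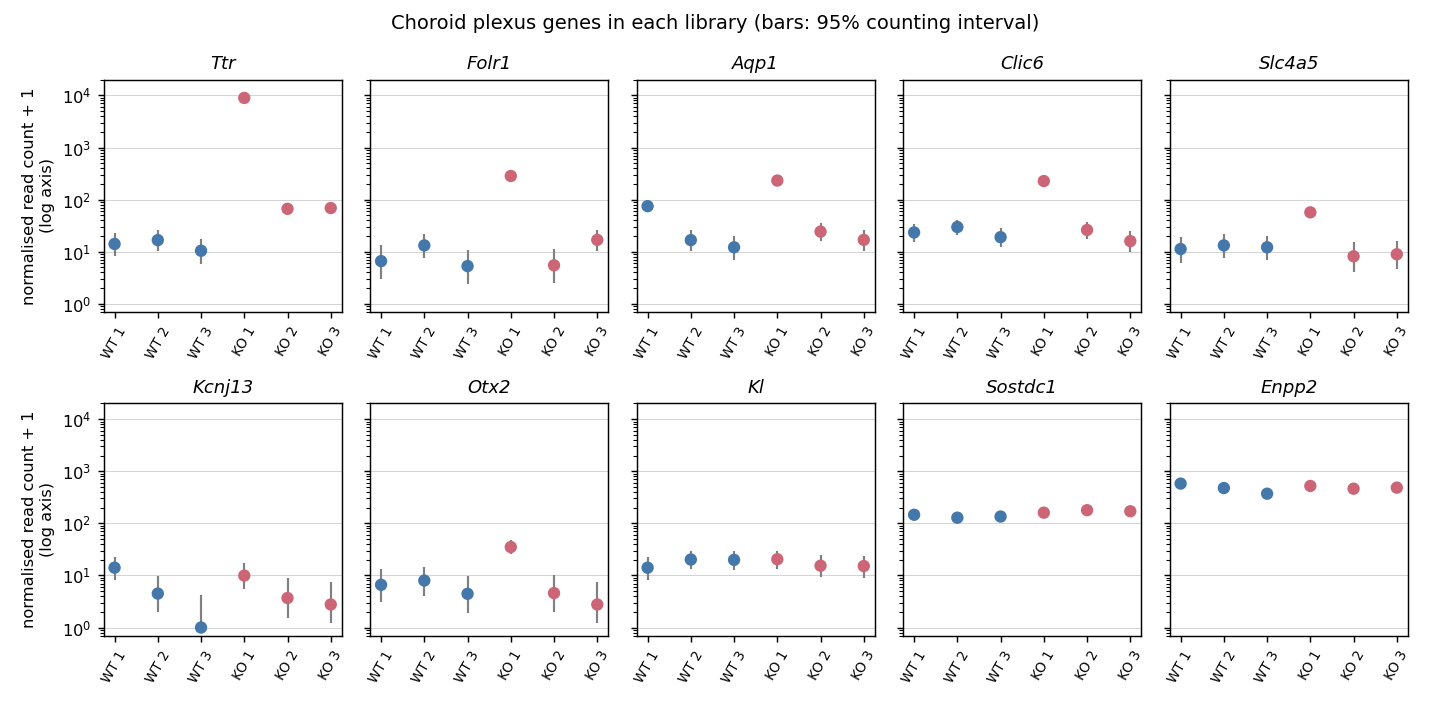
Normalised read count plus 1 on a log axis for the 10 choroid plexus genes in each library (blue, wild type 1 to 3; red, Fezf2 KO 1 to 3; vertical bars, 95% counting interval). Ttr, Folr1, Aqp1, Clic6, Slc4a5 and Otx2 are at least 2-fold higher in Fezf2 KO 1 than in any other library. Kl is highest there by a small margin (19.5 against 19.2 in wild type 2). Sostdc1 is highest in Fezf2 KO 2, and Enpp2 and Kcnj13 are highest in wild type 1.

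Genes for uptake, water and ion movement followed Ttr in that library, with 1 exception. Folr1, the folate receptor alpha that carries folate into cerebrospinal fluid, had 5.61, 12.2 and 4.30 in wild type 1, 2 and 3, against 283, 4.49 and 15.9 in Fezf2 KO 1, 2 and 3. Fezf2 KO 1 was 17.8-fold above the next library, and the other 5 overlapped between genotypes. Clic6, a chloride intracellular channel family member, had 22.5, 28.8 and 18.1 in wild type, against 227, 25.2 and 15.0 in the Fezf2 KO. Slc4a5, a sodium bicarbonate cotransporter of the ventricular membrane, had 10.3, 12.2 and 11.2 in wild type, against 56.0, 7.18 and 7.95 in the Fezf2 KO. For both genes Fezf2 KO 2 or 3 held the lowest value of all. Its counting interval overlapped those of the wild type libraries. The high value of Fezf2 KO 1 was not shared by the other libraries of its genotype.

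Aqp1, the water channel of the choroid plexus epithelium that red cells and some other cells also carry, was high in 2 libraries. It had 73.9, 15.7 and 11.2 in wild type 1, 2 and 3, against 231, 23.4 and 15.9 in Fezf2 KO 1, 2 and 3. Fezf2 KO 1 was 3.13-fold above wild type 1, which in turn was 4.65-fold above the median of the other 5. The meningeal genes were also highest in wild type 1, and their part in its Aqp1 value was not tested. Kcnj13, the inward rectifier Kir7.1 of the same membrane, was the exception: it had 14, 4 and 0 reads in wild type 1, 2 and 3, against 11, 3 and 2 in Fezf2 KO 1, 2 and 3. Its highest value, 13.1 in wild type 1, had a counting interval of 7.16 to 22.0 that included the 8.93 of Fezf2 KO 1. The exact interval of the 0 in wild type 3 ends at 3.17 normalised reads. Kcnj13 lies on the opposite strand of Gigyf2 in the GENCODE annotation, and the library strand is not stated, so reads from both genes cannot be told apart. The same limit holds where Folr1 overlaps Anapc15, Enpp2 overlaps Gm26684 and Otx2 overlaps Otx2os1 on the opposite strand. Clic6 overlaps 2410124H12Rik and Otx2 overlaps Gm49154 on the same strand.

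Otx2, the transcription factor, had 5.61, 6.98 and 3.44 in wild type, against 34.1, 3.59 and 1.77 in the Fezf2 KO. Fezf2 KO 1 was 4.89-fold above the next library. The other 5 values rested on 2 to 8 reads each, and the interval of Fezf2 KO 1 (24.6 to 46.1) lay above all of theirs.

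The other 3 genes did not follow Ttr. Kl, which encodes the FGF coreceptor Klotho, had 13.1, 19.2 and 18.9 in wild type, against 19.5, 14.4 and 14.1 in the Fezf2 KO, from 14 to 24 reads a library. The counting intervals of all 6 overlapped. Enpp2, the secreted enzyme autotaxin, which oligodendrocyte lineage cells also make, had 578, 475 and 370 in wild type, against 520, 461 and 483 in the Fezf2 KO. Its highest library was wild type 1 and its lowest wild type 3, with the Fezf2 KO libraries between. Sostdc1, a secreted antagonist of BMP and Wnt signals, had 145, 127 and 134 in wild type, against 159, 178 and 170 in the Fezf2 KO. The groups did not overlap, yet Fezf2 KO 1 was the lowest of the 3 Fezf2 KO libraries. In Fezf2 KO 1 none of these 3 genes was 2-fold above the highest other library. Whether fewer cells of a type or less RNA per cell set any of these levels cannot be told in bulk samples.

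Per kilobase of merged exon (GENCODE M21 lengths, which may differ from those used for counting), Ttr stood at 7546.5 normalised reads in Fezf2 KO 1, above Folr1 at 179.9, Enpp2 at 155.7, Sostdc1 at 89.4, Aqp1 at 88.1 and Clic6 at 60.3. The lowest levels per kilobase in that library were those of Otx2 (11.4), Slc4a5 (10.2), Kcnj13 (7.03) and Kl (3.81). In the median of the other 5 libraries the order was different: Enpp2 (142.0) and Sostdc1 (81.4) led, followed by Ttr (13.25), Aqp1 (6.05) and Clic6 (5.98). The last 2 differed by less than their counting error.

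Of the 10 genes, 6 were at least 2-fold higher in Fezf2 KO 1 than in the highest other library, as were 0.793% of all entries with any read. By the same measure 0 of the 10 stood out in wild type 1, where 1.6% of all entries did. Fezf2 KO 1 was the highest of the 6 libraries for 7 of the 10 genes, and for 21.8% of all entries. The library was singled out by these values, so the count is a description. Over the 6 libraries, Pearson's r between log2(value + 1) of a gene and the mean of the other 9 was 0.962 for Clic6, 0.917 for Folr1, 0.914 for Slc4a5, 0.903 for Otx2, 0.879 for Ttr and 0.874 for Aqp1. It was 0.543 for Kcnj13, 0.483 for Enpp2, 0.323 for Kl and 0.223 for Sostdc1. Each r rests on 6 points of which 1, Fezf2 KO 1, lies far from the rest. Among the 17557 genes tested, the spread within genotypes ranked at percentile 100 for Ttr, 99.9 for Folr1, 99.8 for Aqp1, 99.7 for Clic6 and 99.4 for Slc4a5. It ranked at 82.1 for Kl, 77.8 for Enpp2 and 33.5 for Sostdc1.

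In Fezf2 KO 1 the excess of Folr1 over the median of the other libraries was 3.11% of the excess of Ttr, and the corresponding shares were 2.41% for Aqp1, 2.28% for Clic6, 0.512% for Slc4a5 and 0.341% for Otx2. At these shares, the Ttr level of Fezf2 KO 2 and 3 would go with 2.04 and 2.11 normalised reads of Folr1 and 1.58 and 1.64 of Aqp1. Amounts this small lie within counting error, so whether these genes followed Ttr there cannot be told. The level of Folr1 was 3.17% of that of Ttr in Fezf2 KO 1, 6.85% in Fezf2 KO 2, 23.4% in Fezf2 KO 3 and 42.8% to 77.8% in the wild type libraries, from 5 to 18 Folr1 reads in each library but Fezf2 KO 1.

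The comparison of genotypes asks whether cortex without an intact Fezf2 gene differs in these genes. By limma on log2(value + 1), 0 of the 8 genes tested changed at an adjusted p under 0.05, where 0.712% of 17557 genes did. Kcnj13 and Otx2 did not reach 10 normalised reads in 3 libraries and were tested only without that filter (limma adjusted p = 0.981 and 0.965). At an unadjusted p under 0.05 there were 2 by limma (Ttr and Sostdc1) and 3 by edgeR (Ttr, Folr1 and Sostdc1), where 9.03% and 9.1% of all genes tested had one. Both tools had 0 after adjustment, and so did DESeq2, which returned no p for Ttr and Aqp1. The median log2 change of the 8 genes was 0.64, against 0.00 over all genes tested, and -0.10 without Fezf2 KO 1.

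Ttr had a mean of 12.8 ± 3.14 (SD, n = 3) in wild type and 3028 ± 5129 (SD, n = 3) in Fezf2 KO cortex. The log2 change was 4.68 (SE 1.65, limma adjusted p = 0.401). Without Fezf2 KO 1 it was 2.33 (SE 0.275, limma adjusted p = 0.0173), and by edgeR on recovered reads, without the same library, 2.38 (adjusted p = 0.0141). It was then the 1 gene of the 8 to pass, where 0.615% of all genes did in either direction and 0.285% as higher. Leaving out the library with the most Ttr therefore lowered the estimate and took it past the threshold. Fezf2 KO 1 was singled out by values that include its Ttr, so the p given without it follows a choice made on the tested gene. Without wild type 1 as well, the log2 change was 2.36 (SE 0.308, limma adjusted p = 0.0513), and 0.325% of all genes passed. Within litter m1, the 65.6 of Fezf2 KO 2 stood against 13.1 and 15.7, and within litter m2 the 68.0 of Fezf2 KO 3 stood against 9.45.

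For Folr1 (log2 1.94, SE 1.24), Clic6 (0.95, SE 0.851), Aqp1 (0.88, SE 1.02) and Slc4a5 (0.40, SE 0.680) the limma estimates did not hold without Fezf2 KO 1. They were then 0.32 (SE 0.601), -0.21 (SE 0.325), -0.29 (SE 0.716) and -0.51 (SE 0.307), with limma adjusted p between 0.768 and 0.977. By edgeR with all libraries, the log2 changes of these 4 genes were 3.76, 1.95, 1.44 and 1.09 (adjusted p = 0.464, 0.611, 0.798 and 0.784). Sostdc1 had 168.8 ± 9.36 in Fezf2 KO against 135.5 ± 8.90 in wild type (SD, n = 3 each; log2 0.32, SE 0.118, limma adjusted p = 0.448). Without Fezf2 KO 1 its log2 change was 0.36 (SE 0.131, limma adjusted p = 0.471). Groups did not overlap, with Fezf2 KO higher, in 2 of the 8 genes (Ttr and Sostdc1) and in 7.6% of all genes tested. With Fezf2 KO lower this held for 0 of the 8 and for 6.85% of all. Enpp2 (log2 0.06, SE 0.155) and Kl (-0.08, SE 0.264) had limma adjusted p of 0.961 and 0.973.

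**Figure D2:**
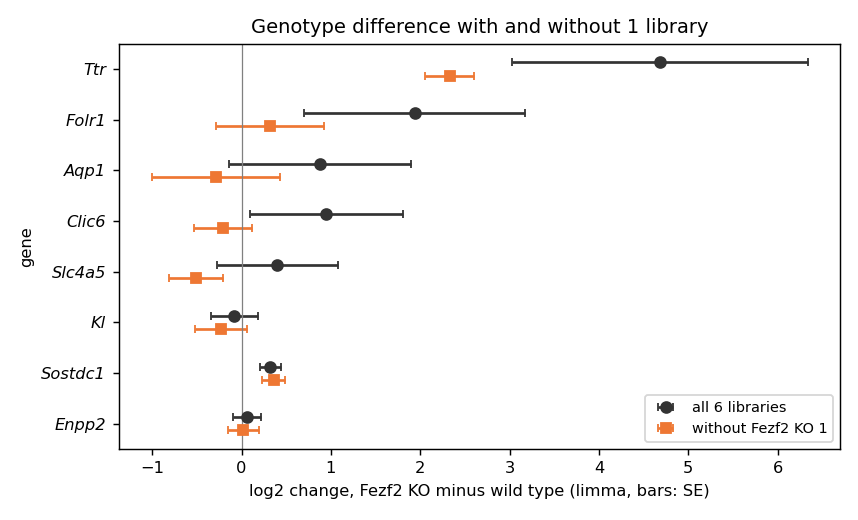
Log2 change of Fezf2 KO minus wild type by limma for the 8 genes tested, with SE bars, from all 6 libraries (circles) and without Fezf2 KO 1 (squares). The estimates of Clic6, Aqp1 and Slc4a5 change sign, that of Ttr goes from 4.68 to 2.33 with a smaller SE, and that of Sostdc1 goes from 0.32 to 0.36.

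A further 30 genes known from choroid plexus epithelium were listed, of which 28 had a row and 18 were tested. By limma 1 rose (where 0.404% of all genes did), 0 fell and 17 did not pass, with a median log2 of 0.06 against 0.00 over all genes tested. The gene that rose was Sulf1, a heparan sulfate endosulfatase that many tissues make, with 910, 791 and 871 in wild type, against 1280.4, 1290 and 1301 in the Fezf2 KO (log2 0.59, SE 0.073, limma adjusted p = 0.0111). The 3 Fezf2 KO libraries lay close together and above every wild type library, so Sulf1 did not follow Ttr. Without Fezf2 KO 1 its limma adjusted p was 0.0328, without wild type 1 and Fezf2 KO 1 it was 0.0592, and without Fezf2 KO 3 the list had 0 calls. Cldn1, a tight junction claudin, had 181 ± 43.1 and 284 ± 5.62 (SD, n = 3 each; log2 0.68, limma adjusted p = 0.208), and passed by DESeq2 alone (adjusted p = 0.0426). Over all 17557 genes DESeq2 called 403, against 125 by limma.

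In single libraries, Fezf2 KO 1 was at least 2-fold above the highest other library in 6 of the 28 genes: Kcne2, Cldn2, Tmem72, Calml4, Krt8 and Krt18. Kcne2, a potassium channel subunit of the ventricular membrane, had 75.5 in Fezf2 KO 1 and 4.68 to 14.1 elsewhere. Cldn2, the claudin of leaky epithelia, had 35.7 against at most 2.81, and Tmem72, a membrane protein, had 36.5 against at most 1.75. The keratin Krt18 of simple epithelia had 54.4 against at most 5.39, its partner Krt8 had 35.7 against at most 6.87, and Calml4 had 28.4 against at most 4.68. All 6 are low in the other libraries, where they rest on 0 to 14 normalised reads.

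Another 4 of the 28 genes were high in both Fezf2 KO 1 and wild type 1. Slc13a4, a sulfate transporter of choroid plexus and meninges, had 52.8 in Fezf2 KO 1 but 444 in wild type 1, and at most 9.60 in the other 4 libraries. Lbp, the lipopolysaccharide-binding protein, had 75.5 and 85.2 in those 2 libraries against at most 7.06. The secreted peptide precursor gene 1500015O10Rik had 166 and 94.5 against at most 28.8, and the collagen gene Col8a2 had 161 and 126 against at most 38.4. Of the 6 genes of the list with the highest mean, Sulf1 is given above and the other 5 did not pass by limma. Slc29a4, a monoamine transporter that neurons also express, ranged from 13038 to 14615, Slc31a1, a copper transporter, from 1006 to 1107, and Mfrp from 364 to 459. Cldn3 (1070 to 1759) and Ace, the angiotensin-converting enzyme (395 to 750), varied more, with Ace lowest in wild type 3.

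**Figure D3:**
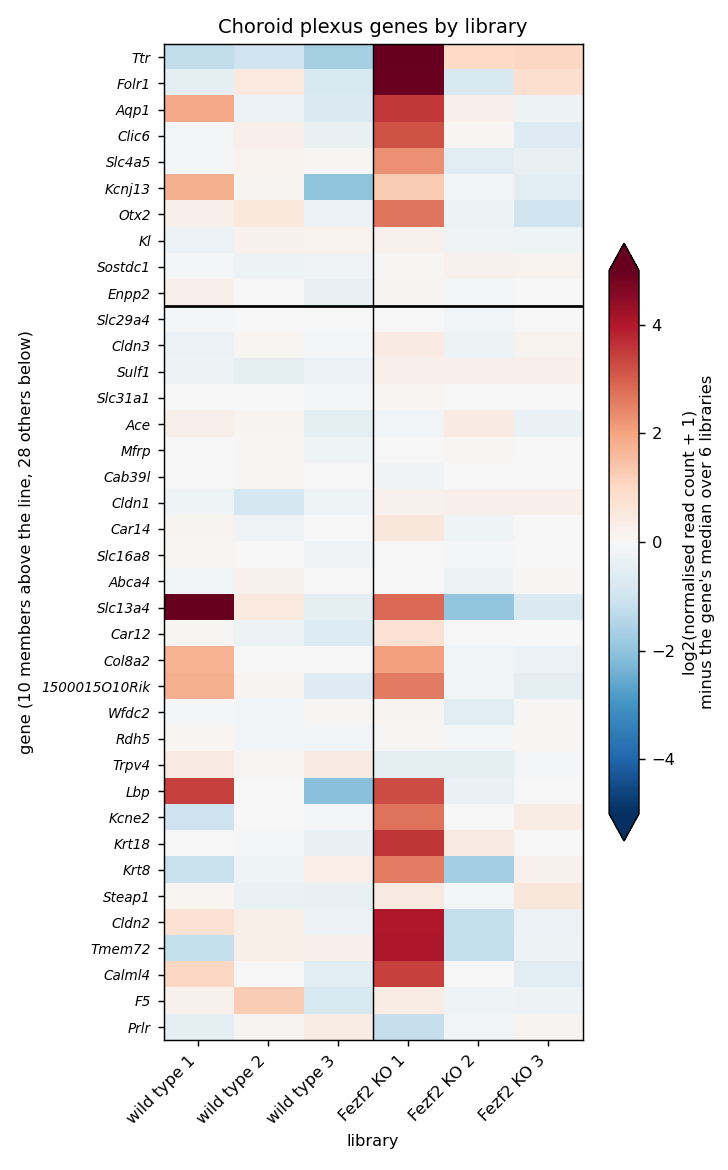
Log2(normalised read count + 1) minus the median of the gene over 6 libraries, for the 10 choroid plexus genes (above the line) and 28 further ones (below, ordered by mean). The column of Fezf2 KO 1 is darkest for Ttr, Folr1, Cldn2 and Tmem72, and wild type 1 shares its colour for Aqp1, Slc13a4, Lbp, 1500015O10Rik and Col8a2. Colours saturate at 5.

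Marker lists of neighbouring tissue were read in the same libraries, as the mean over a list of log2(value + 1) centred on its 6-library mean. For the 10 choroid plexus genes this score was 2.29 in Fezf2 KO 1 and between -0.98 (wild type 3) and -0.15 (wild type 1) elsewhere. For 15 meningeal genes it was 2.92 in wild type 1 and -0.88 to -0.44 elsewhere, and all 15 were highest in wild type 1. Their summed level was 17906 normalised reads in wild type 1, 4281 in Fezf2 KO 1 and 2289 to 3788 in the other 4. Col1a1, a fibroblast collagen, had 1874 in wild type 1 and 346 to 555 elsewhere, and Slc22a6, an organic anion transporter of meninges, had 453 against at most 2.62, with 0 reads in Fezf2 KO 1. Fezf2 KO 1, the library highest in choroid plexus genes, was thus far below wild type 1 in meningeal genes. Nor was the summed level of ciliated ependymal genes higher there: their 18 entries summed to 2726, under the 2800.3 to 3337 of the other libraries. Foxj1 had 788 against 898 to 1152. Of the 18, 2 were highest in Fezf2 KO 1, where 21.8% of all entries were: Ccno, with 196 against 93.6 to 144, and Gm606, with 5.68 against at most 5.30.

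Of 9 red cell entries 8 were highest in Fezf2 KO 1, as were 21.8% of all entries, with a summed level of 16457 against 11278 to 13747. Of 12 endothelial and mural genes 6 were highest in it, with 14648 against 10765 to 14043, but 0 were 2-fold above the highest other library. Their score was 0.14 in Fezf2 KO 1, 0.07 in wild type 1, 0.06 in Fezf2 KO 2 and 0.02 in Fezf2 KO 3. It was lowest, -0.27, in wild type 3. Of 13 genes of striatal neurons, which lie under the cortex, 12 were lowest in Fezf2 KO 1, as were 23.2% of all genes tested. Their sum was 4658, 10301 and 6106 in Fezf2 KO 1, 2 and 3, all below the 16613, 14330 and 12715 of wild type 1, 2 and 3. The score of cortical hem genes, from the tissue that borders the choroid plexus, was 0.01 in Fezf2 KO 1 and highest in wild type 1 (0.54). Of the 16 genes 8 were highest in wild type 1, as were 3568 of all 22813 entries with any read. Among them Bmp4 reached 118 against at most 28.3. A further 3 (18.75%) were highest in Fezf2 KO 1. Among these, Lmx1a had 20.3 in Fezf2 KO 1, 19.65 in wild type 1 and 15.3 in Fezf2 KO 2, against at most 3.53 elsewhere. Wnt2b, also among these, had 125 in Fezf2 KO 1 and was lowest in wild type 1, at 83.3. The meningeal genes too were highest in wild type 1, and their part in the hem score was not tested. The part of these other tissues in the choroid plexus values was not tested. By limma 0 genes of the meningeal (10 tested), ependymal (15), hem (13), endothelial (12), red cell (6), oligodendrocyte (11) and ion transport (14) lists changed between genotypes. At an unadjusted limma p under 0.05 these lists had 0, 4, 3, 2, 0, 2 and 1, beside the 9.03% of all genes. In each list edgeR called 0, and DESeq2 called 1 gene, in the oligodendrocyte list. Over all 17557 genes DESeq2 called 403. Of 9 hippocampal genes and 2 photoreceptor genes tested, limma and edgeR likewise called 0, DESeq2 called 2 and 0, and 3 and 1 had an unadjusted limma p under 0.05. Without Fezf2 KO 1 limma called 1 hippocampal gene. Among 10 thalamic genes 1 rose, the 1 with an unadjusted limma p under 0.05: Slc17a6, the vesicular glutamate transporter VGLUT2, with 664 ± 48.9 and 961 ± 30.2 (SD, n = 3 each; log2 0.53, SE 0.080, limma adjusted p = 0.0276, and 0.0542 without Fezf2 KO 1). It did not pass with any 1 of the 6 libraries left out. The other 9 thalamic genes did not pass, and the median log2 of the list was 0.02, against 0.00 over all genes tested. Among 13 striatal genes 1 fell: Ppp1r1b, the phosphoprotein DARPP-32, with 6280 ± 510 and 2547 ± 583 (SD, n = 3 each; log2 -1.32, SE 0.142, limma adjusted p = 0.00594), where 0.308% of all genes fell. At an unadjusted limma p under 0.05, 12 of the 13 were lower in Fezf2 KO, where 4.37% of all genes were. In 8 of the 13 the groups did not overlap, with Fezf2 KO lower, as in 6.85% of all genes tested. The median log2 of the list was -1.32, and -0.90 without Fezf2 KO 1, against 0.00 over all genes. DESeq2 called 2 of the 13 and edgeR 1, where they called 403 and 121 of all 17557 genes. Without Fezf2 KO 2 the list had 7 limma calls, where 0.678% of all genes were called, and with any other library left out it had 1.

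**Figure D4:**
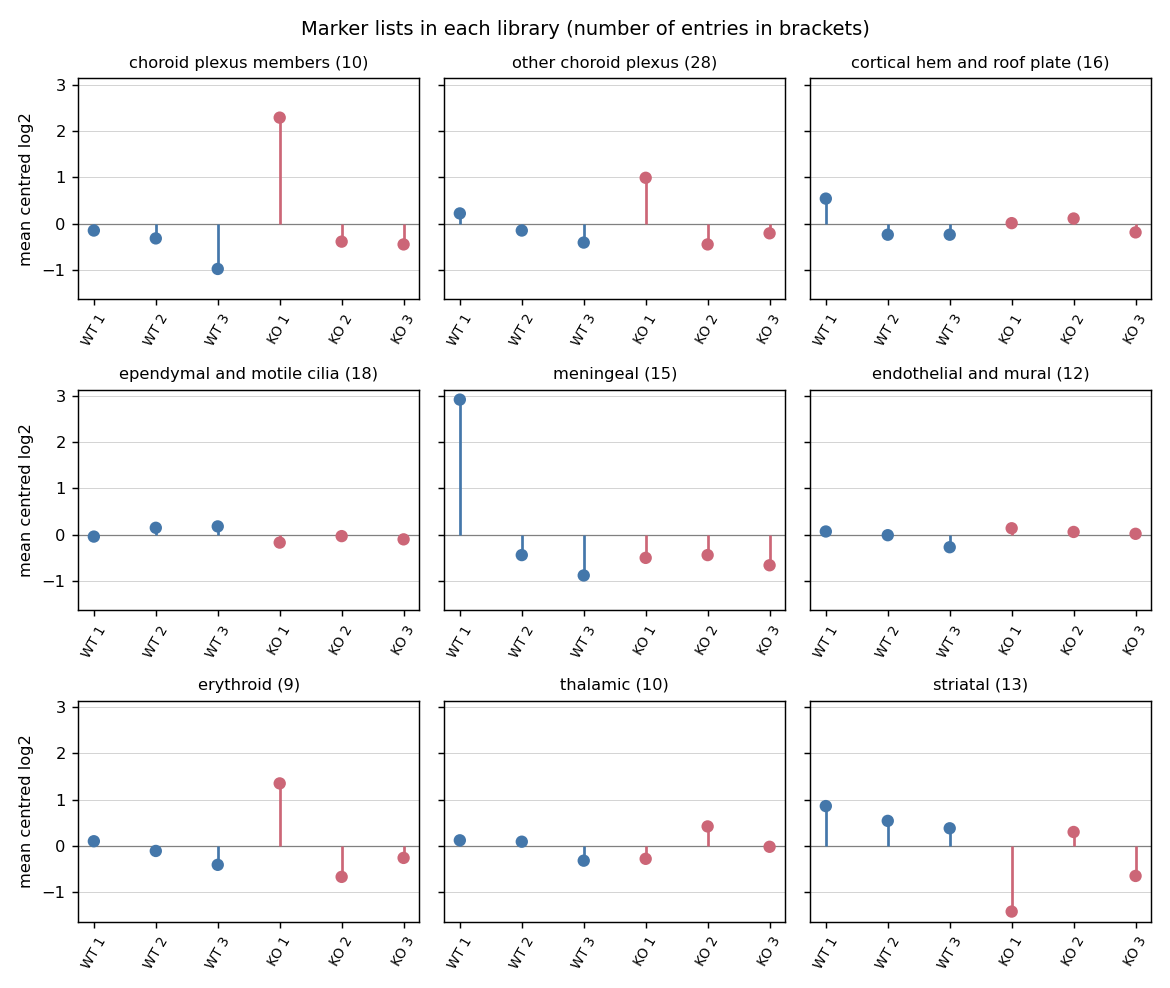
Mean over each list of log2(normalised read count + 1) centred on the 6-library mean, per library (blue, wild type; red, Fezf2 KO). Choroid plexus genes peak in Fezf2 KO 1 (2.29), meningeal genes in wild type 1 (2.92), red cell genes in Fezf2 KO 1 (1.35), and striatal genes are lowest in Fezf2 KO 1 (-1.42).

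The genes whose profile over the 6 libraries was most like the mean of the 10, by Pearson's r among genes with a mean of at least 50, were Lrrc59, Siva1, Sart1, Cops5, Slc16a3, Rps4x, Sox11, Ptk2, Rcor2 and Usp47 (r from 0.981 to 0.995). Their amplitude was small: Fezf2 KO 1 exceeded the median of the other libraries by 1.08-fold for Cops5 to 1.36-fold for Sox11, against 570-fold for Ttr. An r over 6 points with 1 far point ranks shape and not size.

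Counts over all genes were compared with and without the choroid plexus level in the model. With the mean score of the 10 genes as a covariate, limma called 95 genes where it called 125 without, and 86 were called both times. All 125 genes kept the direction of their estimate. Without Fezf2 KO 1 it called 108, of which 86 were among the 125. Of the 71 that rose, 0 were at least 2-fold above the highest other library in Fezf2 KO 1, where 0.793% of all entries were. A gene raised in 1 library varies widely within its genotype, so limma could hardly have called it and the 0 decides nothing. Of the 125, 1, Sulf1, belonged to either choroid plexus list.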

How the data were processed

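Total RNA of 6 newborn cortices was sequenced (Illumina TruSeq libraries, Genome Analyzer II, per the labels' protocols). Bowtie, STAR, DESeq and mm9 are named, without versions, in the submitters' processing notes. The deposited signal was 1 table of read counts per gene divided by a size factor per library. Every library's values were whole multiples of 1 step (0.812 to 0.936) within 0.006 (100% of values), which gave back whole reads. Counts entered edgeR and DESeq2 only as alternatives, because the deposited values are not raw.

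The main test was limma on log2(value + 1) with genotype as its single term and trended variance, for 17557 genes that reached 10 in 3 or more libraries, Benjamini-Hochberg adjusted, threshold 0.05. It was tested on simulated data. Litter, given by the labels, pairs samples: deviations from the genotype mean correlated at -0.177 to 0.263 across genotypes within a litter (5 pairs) and -0.226 to -0.043 between litters (4 pairs). The labels say no more of the replicates than 1 brain each. Xist had 3782 normalised reads in wild type 2 and at most 2.81 elsewhere, and sex was not a term in any model. Alternatives were another pseudocount (0.5), no filter, edgeR (TMM, RLE), DESeq2, litter m1 alone, litter as a block, leaving out each library, and the gene score as a covariate.

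Members and lists were chosen with earlier results of these data known. Named were the 10 genes, of the further choroid plexus list those past the threshold and the 6 highest, of other lists those past it (the rule also takes the 2 highest, given where a result turns on them), and the 10 most alike in profile. Genes named as high in 1 or 2 libraries were chosen after their values were seen. The 3 cortical neuron genes were chosen late as well. Older symbols were matched through RefSeq synonyms (GRCm38.p6), and promoter sequences are RefSeq's. Software: DESeq2 1.42.0, edgeR 4.0.16 and limma 3.58.1 in R 4.3.3, with pandas 2.3.3 and matplotlib 3.10.9 in Python 3.11.15.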

Additional observations from a re-analysis of the deposited data

How the results depend on the processing

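The count of choroid plexus genes changed (0 of 8) was 1 without Fezf2 KO 1, by limma and by edgeR, and 0 under the other alternatives (0 to 1 with 1 library left out). For the further list (1 gene) it was 2 by DESeq2, 0 in litter m1 alone, 0 to 1 with 1 library left out, and 0 when both wild type 1 and Fezf2 KO 1 were left out. That setting and edgeR without Fezf2 KO 1 were added after seeing the data. Over all genes 125 became 403 by DESeq2, 29 in litter m1 alone, 57 without wild type 1 and Fezf2 KO 1, and 61 to 119 with 1 library left out; fewer libraries alone can lower a count. With litter as a replicate block limma called 138 genes and edgeR 131, and the block changed no call among the choroid plexus genes.

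The range over libraries of the mean score of the 10 genes (3.26) was 0.65 without wild type 1 and Fezf2 KO 1 and 0.82 to 3.26 with 1 library left out, the lowest without Fezf2 KO 1. Estimates that changed sign without Fezf2 KO 1 were those of Aqp1 (-0.29 by limma, -0.76 by edgeR), Slc4a5 (-0.51 and -0.56) and Clic6 (-0.21 and -0.20), and Enpp2 was -0.01 by edgeR. Without wild type 1 too, Slc4a5 was -0.57 and Clic6 -0.22. In litter m1 alone Kl was 0.07 and Enpp2 -0.10. With 1 library left out the log2 change ran from -0.29 to 1.68 for Aqp1, -0.21 to 1.70 for Clic6, -0.51 to 0.89 for Slc4a5, -0.25 to 0.01 for Kl, -0.10 to 0.22 for Enpp2, 0.32 to 3.16 for Folr1, 0.27 to 0.37 for Sostdc1 and 2.33 to 5.86 for Ttr. By edgeR, which compares mean levels, Ttr was 7.88 with all libraries (adjusted p = 0.281). The cause of these shifts beyond the library left out was not tested. Low reads limit Kcnj13, Otx2, Kl and Slc4a5.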

Other observations

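Entries that stood out in a single library, with at least 20 normalised reads and at least 4-fold over the highest other library, numbered 16 in Fezf2 KO 1, 57 in wild type 1, 4 in wild type 2, 2 in wild type 3, 0 in Fezf2 KO 2 and 6 in Fezf2 KO 3. The 4 in wild type 2 were Xist (3782 against at most 2.81), Tsix (538 against 0) and 2 lincRNA entries with the same values. Of the 16 in Fezf2 KO 1, 5 were Ttr, Folr1, Clic6, Otx2 and Slc4a5, and 6 were Kcne2, Cldn2, Tmem72, Calml4, Krt8 and Krt18. A further 3 were red cell genes, named after their values were seen. Slc4a1, the band 3 anion exchanger of red cells, had 286 in Fezf2 KO 1 against 4.49 to 22.3 elsewhere. Hemgn, a nuclear protein of red cell precursors, had 32.5 against at most 2.62, and Rhd, a Rhesus blood group protein, had 21.9 against at most 4.68. Abundant red cell messages differed less, with the globin gene Hbb-b1 at 2451 against 1115 to 1768. The last 2 of the 16, AK013627 and linc-Tsc22d1, had identical values, 26.8 in Fezf2 KO 1 and 0 in the other 5 libraries.

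Of the 57 entries in wild type 1, 8 were on the meningeal list, 1 (Slc13a4) on the further choroid plexus list and 0 among the 10 choroid plexus genes. Others of the 57, named after their values were seen, were Slc6a13, a GABA and taurine transporter, with 361 against at most 4.87, Cdh1, E-cadherin, with 271 against at most 4.42, and Lyve1, a hyaluronan receptor of lymphatic cells and macrophages, with 92.6 against at most 6.98.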
